A study of Mus musculus with 6 samples.

Results

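The genes described here are 10 regulators of cell-cycle arrest and senescence around the tumour suppressor p53: Trp53, Trp53inp1, Cdkn1a, Cdkn2a, Cdkn2b, Mdm2, Ccng1, Gdf15, Ei24 and Sesn1. They were taken by symbol, with no measured value used, and all 10 of 10 were among the 7384 genes listed in each library. RNA sequencing was performed on vascular smooth muscle cells, which line the artery wall in contractile layers, from mouse aorta (the labels also call them a cell line, VSMCs). The groups were cells given an siRNA that targets Sirt6 for 48 h (siSirt6, 3 libraries) and control cells (Control, 3 libraries). Sirt6 encodes an NAD-dependent deacylase of chromatin. The strain, age and genotype of the mice, what the Control cells received, and whether the libraries of a group came from separate cultures or animals are not given in these sources. The p-values therefore measure only the spread between these libraries, which may be technical.

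p53, encoded by Trp53, is a transcription factor held low by the ubiquitin ligase Mdm2, which is itself a p53 target, so that the pair forms a feedback loop. Once stabilised by DNA damage or other stress, p53 drives genes that stop the cell cycle, among them Cdkn1a, whose product p21 inhibits cyclin-dependent kinases (CDKs). A second brake is the INK4 locus, where Cdkn2a encodes p16INK4a and p19ARF, and the neighbouring Cdkn2b encodes p15INK4b. p16INK4a and p15INK4b block CDK4 and CDK6, while p19ARF restrains Mdm2. Both brakes are widely used as marks of senescence, a lasting arrest that smooth muscle cells can enter in ageing and diseased arteries.

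Sirt6 stood at 55.9 ± 10.1 normalised reads in siSirt6 and 259.7 ± 9.62 in Control (SD, n = 3 each), which put all 3 siSirt6 libraries below all 3 Control libraries (log2 fold change -2.21, limma adjusted p = 1.16e-15). Between 14458847 and 15526399 reads per library fell on the listed genes; the depth of the whole libraries is unknown. The background for the marker counts below was 50.5% of all tested genes higher in siSirt6 and 49.3% lower. Of 12 smooth muscle markers, 10 were listed and 8 rose and 2 fell, with a summed level of 131422 to 133094 in siSirt6 and 84377 to 85110 in Control. Among them, named after their values were seen, Acta2 stood at 44096 reads per kb of exon in siSirt6 and 26527 in Control, whereas Tagln, usually abundant in these cells, stood at 175.2 and Myh11 at 96.2 in siSirt6, against 89.9 and 78.3 in Control. Endothelial markers rose, 10 of 10 tested, from 12 in the list, with a summed level of 1969 to 2102 in siSirt6 and 1057 to 1225 in Control. Their Control means ran from 12.3 normalised reads for Cldn5, near the floor, to 617.4 for Emcn, a large part of that sum. Of 12 macrophage and leukocyte markers 3 were listed and rose, 0 of them when libraries were scaled to equal sums over the listed genes, summing to 1978 to 2018 in siSirt6 and 1777 to 1822 in Control. Of 10 adventitial fibroblast markers 9 were listed, 3 rose and 6 fell, and they summed to 82225 to 83654 in siSirt6 and 98395 to 99513 in Control. Adipocyte markers (4 of 6 listed) summed to 2216 to 2300 in siSirt6 and 1872 to 1975 in Control, and Schwann cell and neuron markers (4 of 7 listed) to 3444 to 3620 and 2246 to 2282. None of these listed markers was at 0 throughout. In bulk RNA a change in the number of cells of a type and a change in RNA per cell cannot be told apart, and the part of such cells in the results was not tested.

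Sirt6 knockdown went with a divided picture. Trp53, Mdm2, Cdkn1a, Gdf15 and Ei24 rose by 1.17-fold to 1.69-fold and Ccng1 by 1.04-fold, while Trp53inp1 and Sesn1 fell to 0.414 and 0.549 of their Control level. Cdkn2b and Cdkn2a fell as well, to 0.743 and 0.777. All 10 passed limma's test across all genes (Benjamini-Hochberg adjusted p below 0.05), 6 higher and 4 lower. The background was 99.8% of tested genes passing, 50.5% higher and 49.3% lower, so passing carries no information by itself: the deposited tables hold almost only genes that differ. When p-values were adjusted over all 55536 annotated genes, 9 of the 10 passed, against 90.3% of the 7179 genes tested, and the exception was Ccng1. Of the 9, 5 were higher, against 45.9% of tested genes, and 4 were lower, against 44.4%. The ranges of the groups did not overlap for any of the 10 genes, as for 96.8% of tested genes. The median log2 fold change of the 10 was 0.14, against 0.085 over all tested genes, and their median absolute log2 fold change was 0.396, against 0.366. A change of at least 2-fold on the log2 scale was reached by Trp53inp1 alone, beside 7.76% of tested genes, and a change of at least 1.5-fold by 3 of the 10 (Trp53inp1, Sesn1 and Gdf15), beside 23.1%.

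**Figure D1:**
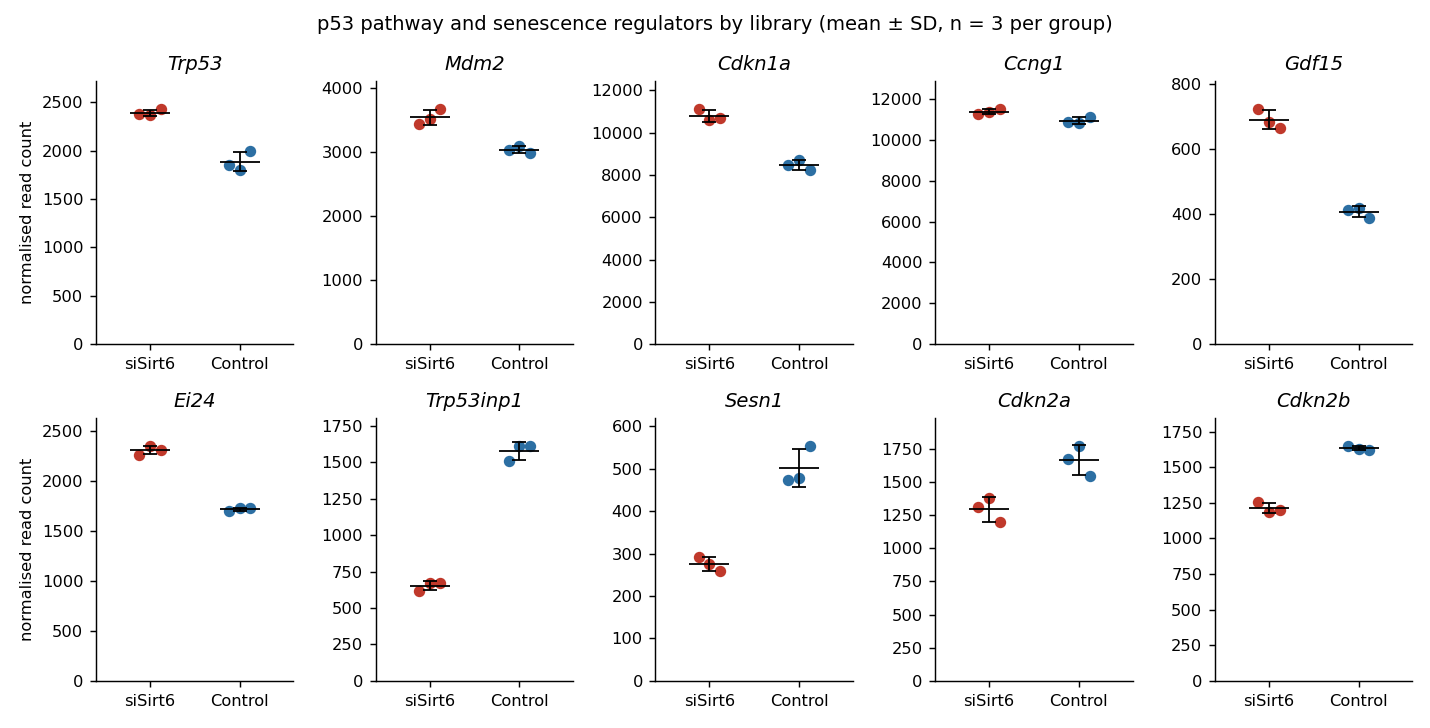
Normalised read counts of the 10 regulators (vertical axes, starting at 0, 1 panel per gene) in each siSirt6 library (red) and each Control library (blue); the bar is the mean and the whiskers are the SD of 3 libraries. The groups do not overlap in any panel, and the largest ratio between group means is that of Trp53inp1, with 616.0 to 673.3 in siSirt6 and 1507 to 1613 in Control.

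The p53 gene itself was higher. Trp53 (ENSMUSG00000059552, chromosome 11, 69580359 to 69591873, plus strand; all gene positions are on GRCm38) had 2383, 2366 and 2429 normalised reads in the siSirt6 libraries, against 1855, 1805 and 1997 in the Control libraries. The lowest siSirt6 library lay above the highest Control library, which was Control replicate 3. The log2 fold change was 0.34 with a standard error of 0.037 (limma adjusted p = 5.77e-10). Mdm2 (ENSMUSG00000020184, chromosome 10, 117688875 to 117710758, minus strand), the ligase that marks p53 for destruction, had 3426, 3514 and 3663 reads in siSirt6 and 3028, 3084 and 2980 in Control. It was the second smallest of the 10 changes, with a log2 fold change of 0.22 ± 0.031 SE (limma adjusted p = 1.04e-07), and 78.5% of tested genes changed by more. When libraries were instead scaled to equal sums over the listed genes (listed totals), Mdm2 kept a log2 fold change of 0.10 and Trp53 one of 0.23. A processed pseudogene, Trp53-ps, is annotated and is not among the listed genes; reads shared with it cannot be told from those of Trp53.

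Among the genes that p53 is known to switch on, the arrest factor Cdkn1a (ENSMUSG00000023067, chromosome 17, 29090976 to 29100727, plus strand) was abundant and rose. It had 11114, 10602 and 10688 normalised reads in siSirt6, against 8466, 8734 and 8259 in Control. The siSirt6 libraries were all above the Control libraries by far more than either group's spread (10802 ± 274 against 8486 ± 238, SD, n = 3 each), and the log2 fold change was 0.35 ± 0.023 SE (limma adjusted p = 6.59e-15). Across the tested genes the log2 fold change ran lower with longer transcripts (Spearman rho -0.43, a description) and higher with GC content (rho 0.21). After correction for both, Cdkn1a had a log2 fold change of 0.15 (limma adjusted p = 3.35e-07). Ccng1 (ENSMUSG00000020326, chromosome 11, 40748552 to 40755311, minus strand) encodes cyclin G1, a p53 target that acts on Mdm2 through the phosphatase PP2A. It was nearly level, at 11282, 11346 and 11493 reads in siSirt6 and 10852, 10831 and 11132 in Control. The siSirt6 libraries were the higher ones, but the log2 fold change was 0.06 ± 0.021 SE (limma adjusted p = 0.01) and 99.8% of tested genes changed by more. Scaling to listed totals turned it to -0.06 (limma adjusted p = 0.00563), it did not pass without Control replicate 2 (0.05, limma adjusted p = 0.0528), and after correction for length and GC content it was 0.17.

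Gdf15 (ENSMUSG00000038508, chromosome 8, 70629393 to 70632456, minus strand) encodes a secreted stress hormone of the TGF-beta superfamily, induced by p53 and by the integrated stress response. It had 721.8, 683.5 and 664.0 reads in siSirt6, against 413.7, 419.6 and 388.2 in Control. This was the largest rise of the 10, with group means of 689.8 ± 29.4 and 407.2 ± 16.7 (SD, n = 3 each), a log2 fold change of 0.76 ± 0.066 SE (limma adjusted p = 3.11e-12) and 14.1% of tested genes changing by more. With the length and GC trend removed its log2 fold change was 0.49. Ei24 (ENSMUSG00000062762, chromosome 9, 36779159 to 36797393, minus strand), also called PIG8, encodes an endoplasmic reticulum membrane protein needed for autophagy and induced by p53. It had 2262, 2350 and 2314 reads in siSirt6 and 1697, 1725 and 1728 in Control. Both groups were tight, and the log2 fold change was 0.43 ± 0.035 SE (limma adjusted p = 9.51e-13). An antisense gene, Gm26787, overlaps 6.66% of the Ei24 exons, and a transcript on the opposite strand, AC167363.2, overlaps 7.68% of those of Cdkn1a. Neither is listed, and with the strand setting of the authors' counting not given in the sources used here, reads of such partners cannot be told apart.

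Both p53 targets that fell act in stress control. Trp53inp1 (ENSMUSG00000028211, chromosome 4, 11156431 to 11174379, plus strand) encodes a nuclear stress protein that takes part in p53 phosphorylation and in autophagy. It had 616.0, 671.1 and 673.3 reads in siSirt6, against 1507, 1612 and 1613 in Control. Every siSirt6 library was below 0.5 of every Control library, and the log2 fold change was -1.27 ± 0.050 SE (limma adjusted p = 1.53e-21), which 4.23% of tested genes exceeded in size. Sesn1 (ENSMUSG00000038332, chromosome 10, 41809935 to 41908424, plus strand) encodes sestrin 1, which restrains the growth kinase mTORC1. It had 290.7, 276.3 and 259.1 reads in siSirt6 and 472.3, 479.0 and 553.4 in Control, where Control replicate 3 was the high one. The log2 fold change was -0.86 ± 0.081 SE (limma adjusted p = 2.37e-11), and -0.79 without Control replicate 3. The second sestrin gene listed, Sesn2, named after its values were seen, also fell, to 1182 ± 17.3 in siSirt6 against 1541 ± 41.7 in Control (SD, n = 3 each; log2 fold change -0.38, limma adjusted p = 7.2e-10).

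The INK4 genes fell together. Cdkn2a (ENSMUSG00000044303, chromosome 4, 89274471 to 89294653, minus strand) had 1307, 1377 and 1195 reads in siSirt6 and 1675, 1771 and 1548 in Control. The highest siSirt6 library lay below the lowest Control library, and the means were 1293 ± 92.1 in siSirt6 and 1665 ± 112 in Control (SD, n = 3 each; log2 fold change -0.36 ± 0.052 SE, limma adjusted p = 2e-06). Cdkn2a is given as 1 value per library, so its transcripts for p16INK4a and for p19ARF, which begin at separate first exons, were not distinguished. Cdkn2b (ENSMUSG00000073802, chromosome 4, 89306299 to 89311039, minus strand) had 1257, 1188 and 1198 reads in siSirt6, against 1649, 1628 and 1623 in Control. Its Control libraries were very close (1633 ± 13.7) and its log2 fold change was -0.43 ± 0.041 SE (limma adjusted p = 3.68e-11). The annotated genes lie 11645 bases apart. Both have short transcripts (895 bases for the longest of Cdkn2a and 1390 for Cdkn2b), and after correction for length and GC content their falls were larger, at -0.79 for Cdkn2a and -0.77 for Cdkn2b. Within 500 kb on either side the other tested genes, named after their values were seen, were higher in siSirt6: Gm12602, Gm49890 and Wincr1, each under 50 reads on average, and Mtap, which salvages methionine. Mtap rose to 1450 ± 53.9 in siSirt6 against 1326 ± 9.08 in Control (log2 fold change 0.13, limma adjusted p = 0.00469).

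**Figure D2:**
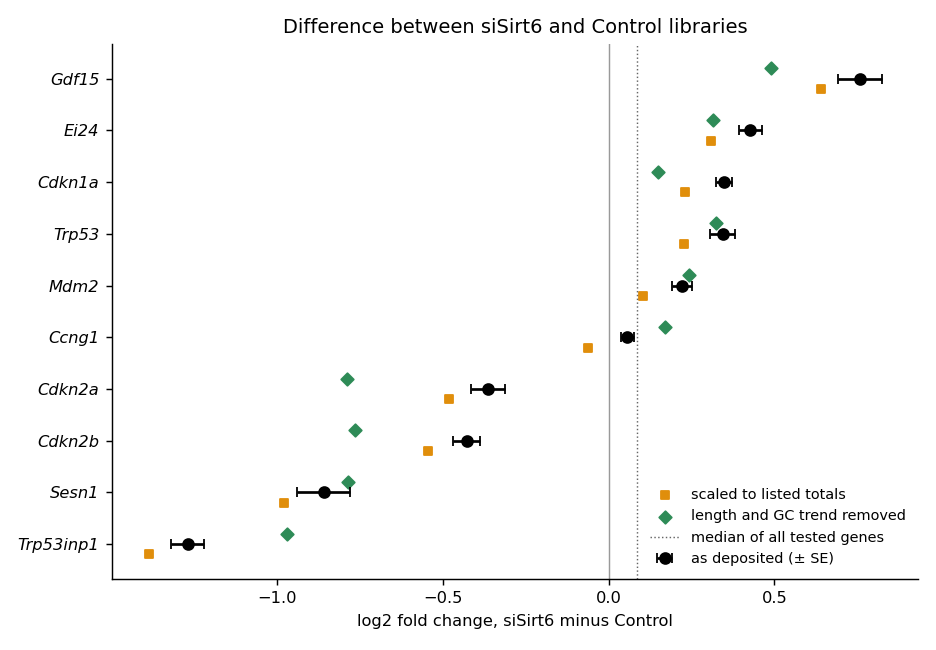
Log2 fold change, siSirt6 minus Control (horizontal axis), of the 10 regulators, as deposited (black, with limma's standard error), under scaling to listed totals (orange) and after correction for transcript length and GC content (green); the dotted line is the median of all tested genes. From Trp53inp1 at -1.27 to Gdf15 at 0.76, 9 of the 10 keep their side of 0 in all 3 forms, and Ccng1 moves between -0.06 and 0.17.

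The start regions were searched for the letters of the p53 half-site consensus, the 10-base element that p53 binds in pairs. A palindromic consensus, it was read on both strands at once. RefSeq windows (GRCm38.p6, 250 bases before to 50 after a start) were available for 9 of the 10 genes, in 13 windows. The half-site letters were present at 6 of those 9 genes, against 8.47% of tested genes and 9.55% of all genes with a window. The 10 genes were picked by symbol around p53, several as its known targets. This contrast may therefore follow from the choice of genes and is not a finding about them. The stretches that hold them are shown because they are the places where these genes carry the letters of the element, with half-sites in capitals, 5′ to 3′ on the strand of the gene.
Cdkn1a, chr17:29090881-29090962, plus strand: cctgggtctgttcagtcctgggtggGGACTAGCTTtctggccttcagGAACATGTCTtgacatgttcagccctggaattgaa
Trp53, chr11:69580259-69580318, plus strand: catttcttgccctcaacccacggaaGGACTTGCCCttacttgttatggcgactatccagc
Mdm2, chr10:117710910-117710969, minus strand: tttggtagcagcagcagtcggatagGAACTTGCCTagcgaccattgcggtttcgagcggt
Ccng1, chr11:40755437-40755496, minus strand: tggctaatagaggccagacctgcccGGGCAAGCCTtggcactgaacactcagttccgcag
Ei24, chr9:36797335-36797369, minus strand: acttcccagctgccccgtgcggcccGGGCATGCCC
Sesn1, chr10:41887241-41887300, plus strand: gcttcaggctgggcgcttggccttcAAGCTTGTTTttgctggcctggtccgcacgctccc

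Cdkn1a alone held a full site, defined as a pair of half-sites with at most 13 bases between them, in its upstream window. Such a site was in 0.0431% of the windows of tested genes and 0.0731% of all windows. The other Cdkn1a window held no half-site. The search allowed no mismatch, so near matches beside the capitals were left unmarked, and which half-sites p53 pairs there is not shown. Of the 6 genes with half-site letters, Trp53, Mdm2, Cdkn1a, Ccng1 and Ei24 were higher in siSirt6 and Sesn1 was lower. Sesn1 held them in its window at 41887189 to 41887488, and its window at 41810324 to 41810623 held none. Trp53inp1, with the largest fall of the 10 (log2 fold change -1.27), had no window and was not searched, so the split by direction is incomplete. The windows of Cdkn2a, Cdkn2b and Gdf15 held none. The letters TGATGNAA, a core of the element read by the stress factor ATF4, were searched on both strands and were in 0 of the 13 windows, against 2.11% of the windows of tested genes and 3.97% of all windows. Presence of the letters is a description of these windows, and no binding was measured.

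The order of levels was compared per kb of exon. In siSirt6 it ran from Ccng1 (3239 ± 30.8 reads per kb) and Cdkn1a (3040 ± 77.2) through Cdkn2a (1103 ± 78.6), Cdkn2b (873.4 ± 26.9), Mdm2 (695.4 ± 23.6), Trp53 (591.5 ± 8.06), Ei24 (474.3 ± 9.09), Gdf15 (372.4 ± 15.9) and Trp53inp1 (100.9 ± 5.01) to Sesn1 (69.2 ± 3.97; SD, n = 3 each). In Control it ran from Ccng1 (3115 ± 47.8) and Cdkn1a (2388 ± 66.9) through Cdkn2a (1421 ± 95.4), Cdkn2b (1175 ± 9.83), Mdm2 (596.2 ± 10.2), Trp53 (466.2 ± 24.6), Ei24 (352.6 ± 3.53), Trp53inp1 (243.6 ± 9.45) and Gdf15 (219.9 ± 9.01) to Sesn1 (126.0 ± 11.3; SD, n = 3 each). Of the 9 neighbouring pairs in each order, 0 overlapped between libraries. Trp53inp1 and Gdf15 thus stood in opposite order in the groups. When length was taken as the longest transcript, Cdkn1a stood above Ccng1, at 5193 against 3239 reads per kb in siSirt6 and 4080 against 3115 in Control, so the order of that pair depends on the length used. Ei24 then stood above Trp53 in both groups, at 1000.04 against 730.6 reads per kb in siSirt6 and 743.5 against 575.8 in Control. In siSirt6 Cdkn2b, at 873.4, also stood below Mdm2, at 1124, and below Ei24.

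**Figure D3:**
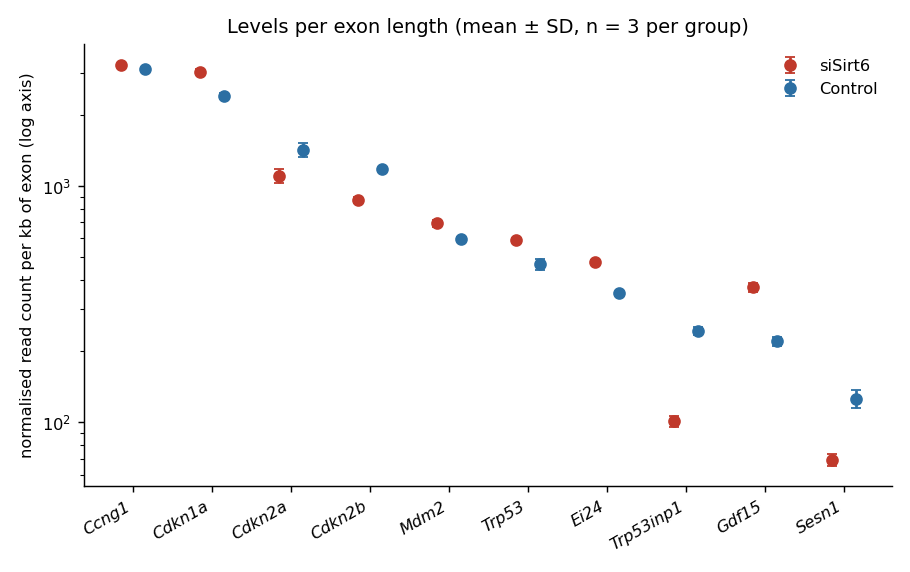
Normalised read count per kb of exon (vertical log axis) of the 10 regulators in siSirt6 (red) and Control (blue), ordered by the Control level; points are means and bars the SD of 3 libraries. Levels run from 69.2 to 3239 reads per kb in siSirt6 and from 126.0 to 3115 in Control, and Gdf15 and Trp53inp1 exchange places.

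Further p53 targets also moved both ways, as did all tested genes, of which 50.5% were higher and 49.3% lower. In the list of targets for arrest and feedback, 23 of 30 genes were tested, 12 rose and 11 fell, with a median log2 fold change of 0.06 against 0.085 over all tested genes; 6 of the 10 regulators are in that list. That median was -0.06 under listed totals and -0.08 after correction for length and GC content. Rps27l, a p53-induced ribosomal protein paralogue, rose to 5028 ± 75.9 in siSirt6 against 4004 ± 15.1 in Control, a log2 fold change of 0.33 that was -0.08 once the length and GC trend was removed. The growth factor gene Tgfa fell to 176.2 ± 6.28 in siSirt6 against 394.5 ± 18.5 in Control (log2 fold change -1.16). Targets for apoptosis and autophagy gave 9 rises and 6 falls among 15 tested of 22 (median 0.23), or 7 and 7 after that correction (median 0.0090). There, Pmaip1, which encodes the pro-apoptotic protein Noxa, rose to 846.4 ± 7.34 in siSirt6 against 587.5 ± 15 in Control. Apaf1, the scaffold of the apoptosome, fell to 483.4 ± 33.8 in siSirt6 against 734.8 ± 36.5 in Control, and the lysosomal protein gene Laptm4a fell to 12543 ± 197 against 15166 ± 299. Of 10 repair targets 4 were tested, 1 higher and 3 lower (median -0.25), or 0 and 3 under listed totals: the translesion polymerase Polh fell to 395.5 ± 25.4 in siSirt6 against 512.4 ± 13.7 in Control, and the replication clamp Pcna to 1672 ± 55.4 against 1898 ± 50.5.

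A list of Trp53 together with regulators of p53, Mdm2 among them, had 10 higher and 11 lower among 21 tested of 30, beside 50.5% higher and 49.3% lower over all tested genes. Its median was -0.16, and 0.03 after correction for length and GC content. Rpl5, Rpl11 and Rpl23 encode ribosomal proteins able to bind Mdm2, and all 3 rose: Rpl11 to 13649 ± 273 in siSirt6 against 9023 ± 260 in Control, Rpl23 to 12346 ± 191 against 8493 ± 79.6, and Rpl5 to 13799.5 ± 68.9 against 11418 ± 143 (SD, n = 3 each). With the length and GC trend removed the log2 fold change was 0.20 for Rpl11, 0.22 for Rpl23 and 0.18 for Rpl5, in place of 0.60, 0.54 and 0.27. Ppp1r13l, which encodes the p53 inhibitor iASPP, rose to 752.5 ± 37.3 in siSirt6 against 436.7 ± 17.4 in Control (log2 fold change 0.78). Mdm4, the relative of Mdm2 that holds p53 inactive, was named after its values were seen: it fell to 670.3 ± 26.5 in siSirt6 against 843.4 ± 6.45 in Control, a log2 fold change of -0.33 that was -0.0063 with that trend removed.

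The CDK inhibitor family showed Cdkn1a apart from most of its relatives. Of 7 tested of 8, 2 rose and 5 fell (median -0.36), or 1 and 5 after that correction. Over all tested genes 50.5% were higher and 49.3% lower as deposited. Cdkn1b, encoding p27, fell to 460.8 ± 35.3 in siSirt6 against 747.7 ± 48.0 in Control (log2 fold change -0.70, limma adjusted p = 3.7e-11). Cdkn1c, encoding p57, rose to 2456 ± 26.2 against 2053 ± 21.9, with a log2 fold change of 0.26 that was 0.02 once the trend was removed. The remaining INK4 genes, Cdkn2c and Cdkn2d, named to complete the family after their values were seen, fell to 561.3 ± 26.9 and 549.0 ± 50.5 in siSirt6, against 815.4 ± 96.5 and 679.3 ± 29.0 in Control. A list of 19 genes of the G1 phase holds the cyclins and CDKs together with the RB family, E2F factors and Cdc25a that work with them. Of its 14 tested genes 11 fell and 3 rose (median -0.46), while 9 were lower and 1 higher with the trend removed. Among its 7 tested cyclins and CDKs, Ccnd1, Ccnd2, Ccnd3, Ccne2, Cdk2 and Cdk6 fell and Cdk4 rose. With the trend removed the log2 fold change of Cdk6 was 0.0013 in place of -0.32, while Ccnd1, Ccnd2, Ccnd3, Ccne2 and Cdk2 stayed lower. All D-type cyclins fell: Ccnd1 to 5578 ± 171 in siSirt6 against 10405.6 ± 101 in Control, Ccnd2 to 6684 ± 74.4 against 9279 ± 103, and Ccnd3 to 6892 ± 192 against 9491 ± 192. Their partner kinase Cdk4 rose to 6844 ± 105 in siSirt6 against 5940 ± 114 in Control, a log2 fold change of 0.20 that was 0.02 with the trend removed. A further list holds mitotic genes of the kind that the DREAM repressor complex controls downstream of p21, together with Lin52 of the complex itself. Its genes fell in 20 of 20 tested cases, of 30 in the list, with a median of -0.34, and 17 of the 20 passed with the trend removed. An example is Ccna2, encoding cyclin A2, which fell to 647.5 ± 11.9 in siSirt6 against 912.1 ± 24.6 in Control.

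Lists tied to senescence and stress are given beside all tested genes, of which 50.5% were higher and 49.3% lower. Of 43 secreted factors 31 were tested, 21 higher and 10 lower (median 0.21). Under listed totals 16 were higher and 10 lower (median 0.09), and after correction for length and GC content 17 and 9 (median 0.22). Timp1, which encodes an inhibitor of matrix metalloproteinases, rose to 26553 ± 153 in siSirt6 against 15969.7 ± 396 in Control (SD, n = 3 each), and its relative Timp2 fell to 50555 ± 672 against 71095 ± 413. Of 14 nuclear and lysosomal genes 6 were tested and all 6 fell (median -0.24). They include the nuclear lamina gene Lmnb1 and the chromatin protein gene Hmgb2, whose loss marks senescence in several cell types: Lmnb1 stood at 884.6 ± 83.4 in siSirt6 and 1116 ± 99.4 in Control, and Hmgb2 at 545.0 ± 28 and 855.7 ± 29.6. That mark of loss does not apply to the lysosomal gene Fuca1 of the same list, named after its values were seen. Fuca1 stood at 2495 ± 62.6 in siSirt6 and 2705 ± 143 in Control. The count of 6 thus mixes unlike genes and is not a count of senescence marks. The integrated stress response list, a pathway that also induces Gdf15, had 10 higher and 8 lower among 18 tested of 25 (median 0.19), or 7 and 6 once length and GC content were corrected for (median -0.0087). Atf4, its transcription factor, rose to 4640 ± 90.9 in siSirt6 against 3605 ± 47.1 in Control, while Ddit4, a stress inhibitor of mTORC1 also listed as a p53 target, fell to 835.0 ± 42.2 against 1236 ± 77.9. Autophagy genes, the process in which Ei24 and Trp53inp1 act, were 10 higher and 12 lower among 22 tested of 39 (median -0.13), or 6 and 12 under listed totals (median -0.25) and 8 and 8 after the length and GC correction (median 0.04). The receptor gene Sqstm1 rose to 11197 ± 51 in siSirt6 against 9267 ± 132 in Control and Atg101, of the initiating ULK complex, fell to 904.4 ± 21.7 against 1513 ± 16.2.

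**Figure D4:**
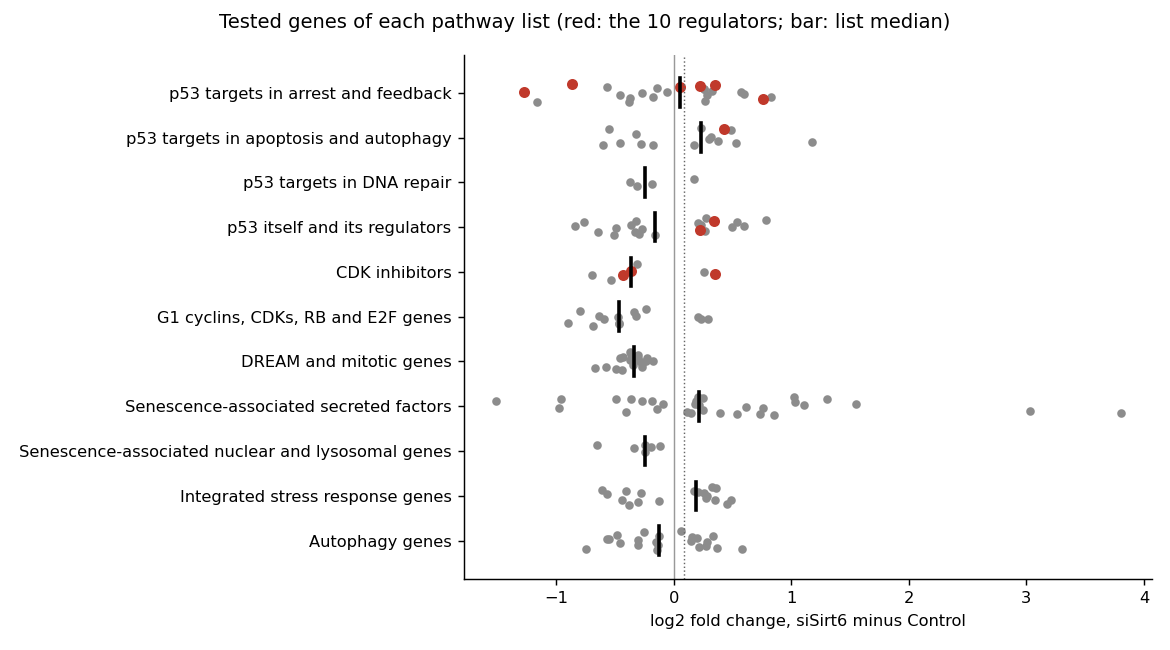
Log2 fold change, siSirt6 minus Control (horizontal axis), of every tested gene of the pathway lists; red points are the regulators described here, grey points other genes, black bars the list medians, and the dotted line the median of all tested genes. The DREAM and mitotic genes (20 of 20) and the senescence-associated nuclear and lysosomal genes (6 of 6) lie left of 0. The latter list mixes nuclear genes with the lysosomal gene Fuca1, so its count is not a count of senescence marks. The p53 target lists spread to both sides, as do all tested genes, with 50.5% higher and 49.3% lower.

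The genes whose pattern over the 6 libraries was closest to each regulator were found by the root mean square difference in log2 value relative to the Control mean, over 6136 genes whose mean was 100 or more. Symbols that begin with Gm or LOC and a digit, or that hold Rik, were left out, also from the counts within 0.1. The measure is on the log2 scale. Gdf15 was closest to Plaur, the urokinase receptor gene (difference 0.0219), Sdc4 and Gadd45g. Trp53inp1 was closest to Smarca2, Ces2g and Vcam1, with a difference of 0.0574 for Smarca2, and 10 genes in all lay within 0.1 of it. Sesn1 was closest to Sez6l, Fam171b and Nacc2, with 33 genes within 0.1. Cdkn1a had 1241 genes within 0.1, led by Pigt, Pacsin3 and Ddx1, and Trp53 had 1107, led by Scamp1, Rnaseh2a and Got1. The nearest to Ei24 were Esyt1, Rab3ip and Arhgdib, and to Mdm2 Vmp1, Naa38 and Pef1. For Cdkn2b they were Trafd1, Myof and Col28a1, for Cdkn2a Kifc5b, Wwc1 and Itsn2, and for Ccng1 they included Atp6ap1 and Cdh2.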

How the data were processed

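Per the labels' protocols, RNA was taken up in Trizol and a TruSeq Stranded mRNA kit was used. Tools named, per the submitters' processing notes, are HTSeq, Cufflinks, HISAT2 and Trimmomatic, with the build mm10, and no versions, roles or order. The signal values that the authors deposited are reads scaled by 1 factor per library: 100% of values in every library were whole within 0.01 reads after division by the step, which was 0.988823, 1.03087 and 1.04068 for siSirt6 replicates 1 to 3 and 0.975759, 0.973636 and 0.965775 for Control replicates 1 to 3. They are called normalised reads or normalised read counts. The rows run in order of limma p (Spearman rho 0.988), and unadjusted p was 0.05 or more for 13 tested genes; other genes were not analysed here.

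Limma 3.58.1 in R 4.3.3 (trend, robust, 2-sided) was run on log2(value + 1), a scale that understates the change of low genes, for 7179 genes that reached 10 in 3 or more libraries, with Benjamini-Hochberg adjustment over all of them. N-fold changes are ratios of group means. The members and the 17 gene lists were chosen with earlier results of these data known, and no list was tested. Genes named are Sirt6, the 10 regulators, the 4 list genes with the smallest p per list and the 3 nearest in pattern per regulator; not all of these are described, and 2 are not reported here. Others are said to be named after their values were seen. Positions and lengths came from GENCODE vM21 on GRCm38 (mm10), where 7332 of 7384 identifiers matched, and start windows from RefSeq. Libraries within a group differed by more than counting noise (chi-square per degree of freedom 1.94 to 2.5). The fit was tested on simulated data in which few genes changed. The deposited tables hold almost only genes that differ, so that simulation does not bear on the calls made here. Alternatives were pseudocounts, filter, scaling, removal of the length and GC trend by splines, a replicate block, adjustment over all annotated genes, each library left out, and edgeR 4.0.16 and DESeq2 1.42.0 on the reads recovered from 5 libraries. siSirt6 replicate 1 was left out of those count tests since its step did not pass a second check for whole reads.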

Additional observations from a re-analysis of the deposited data

How the results depend on the processing

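Of the 10 regulators, 9 kept their direction and passed under every alternative run; the exception was Ccng1. Its log2 fold change was -0.0623 under listed totals, 0.0301 with TMM scaling (limma adjusted p = 0.149), 0.0439 with edgeR and 0.0479 with DESeq2 on 5 libraries, 0.0564 with p adjusted over all annotated genes, and 0.0489 to 0.0691 with 1 library left out. Listed totals moved the median of all tested genes to -0.0339, against 0.0848 as deposited, and put Trp53, Cdkn1a and Mdm2 at 0.23, 0.23 and 0.10. Correction for length and GC content put Gdf15 at 0.49, Cdkn2a at -0.79 and Cdkn2b at -0.77. The number of genes higher in siSirt6 was 3624 and of genes lower in siSirt6 3542; on 5 libraries edgeR gave 3398 and 3522, and DESeq2 3013 and 3235, and every alternative stayed within 1.5 times. Same-numbered libraries did not deviate together (correlations -0.0195, 0.0268 and -0.000793), so the numbers set no pairs. A replicate block gave 3629 and 3540 genes, with 10 of the 10 regulators passing. Of the other genes named by rule and reported, these reversed after the length and GC correction: Rps27l (-0.0831), Myl9 (-0.0428), C1qb (-0.0782), Lyz2 (-0.171), Ly6a (-0.047), Cidec (-0.107), Naa38 (-0.249), Pef1 (-0.0061) and Atp6ap1 (-0.0772). Under listed totals Lyz2 (-0.0097), Atp6ap1 (-0.059) and Cdh2 (-0.0519) reversed. The cause was not tested. Length as the longest transcript was chosen after seeing the data.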
